A study of Mus musculus with 2 samples.

Results

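Chemokines and their receptors were followed in mammary epithelial cells of mice that lack Cuzd1, which encodes a CUB domain and zona pellucida domain protein, and of their heterozygous littermates. The members are all probe sets named by a single gene symbol made of Ccl, Cxcl, Ccr or Cxcr with digits and an optional letter, plus Cx3cl1, Cx3cr1 and Xcl1. This gave 76 of 45101 probe sets, which read 48 of 18193 named genes, 33 of them ligands and 15 receptors. The mice were Cuzd1-knockout (null) or Cuzd1 heterozygous. Both were of the C57BL/6 strain after repeated backcrossing and both were at day 18 of pregnancy. RNA from 5 mice per genotype was pooled and put on 1 array, so the comparison holds 1 array per genotype and no test was possible. The heterozygotes carry 1 intact allele and no wild-type sample was used here. The cells came from inguinal glands digested with hyaluronidase and collagenase, and no sort is recorded.

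Chemokines are small secreted or membrane-held proteins that set up gradients along which white blood cells move. They bind receptors of the G protein-coupled family on those cells, and most receptors accept several ligands. Ligands are made by epithelium, fibroblasts, endothelium and immune cells, and many are induced through NF-kappaB or interferon signalling. In the mammary gland they are known for drawing macrophages into the growing ductal tree and antibody-secreting cells into the lactating gland.

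The values are linear MAS5 signals in intensity units. Low MAS5 signals hold mainly background. Values under an array's median were therefore raised to it, and this floor was 32.5 units in null cells and 34.2 units in heterozygous cells. Each gene was represented by its brightest probe set, and a gene counted as measured when at least 1 array was above its floor. The ratio is log2 of null over heterozygous after flooring. A robust SD of the ratios among genes of similar signal is given beside single ratios. It describes scatter across genes on these arrays and is no replicate error. Cuzd1 itself read 33.98 units in null cells and 32.4 units in heterozygous cells, next to the floor on both arrays, so it does not check the labels. Of 9 luminal epithelial markers, all 9 were above the floor, with summed signals of 69821 units in null cells and 70230 units in heterozygous cells. Markers of other cell types were present too. Fibroblast markers summed to 11021 units in null and 7277 units in heterozygous cells, and macrophage markers to 7194 units in null and 5629 units in heterozygous cells.

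Of the 33 ligand genes, 27 were measured and 26 were above the floor in both pools. At least 2-fold lower in null cells were 3 of the 27 (11.1%), namely Ccl20, Ccl28 and Ccl2, against 1.03% of 11893 measured genes. At least 2-fold higher was 1 (3.70%), Ccl8, against 1.12% of measured genes. At 1.5-fold, 5 ligands were lower and 2 higher, where 4.93% of measured genes were lower and 5.83% higher. The median log2 ratio of the ligands was -0.20 (quartiles -0.48 and 0.09), against 0.03 over all measured genes, and 19 of the 27 lay under that all-gene median. Of the 11893 measured genes, 6427 had ratios above 0 and 5466 below, and later counts by side are to be read beside these. The ligand median turned to 0.02 when the arrays were rescaled to the hybridization controls. That rescaling adds the same amount to every ratio and moved the median of all measured genes to 0.25. Of the 15 receptor genes, 6 were measured and none was 2-fold apart, with a median of 0.11. A lower signal in such a mixture of cells can come from fewer cells of a type or from less RNA per cell, and these cannot be told apart here.

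**Figure D1:**
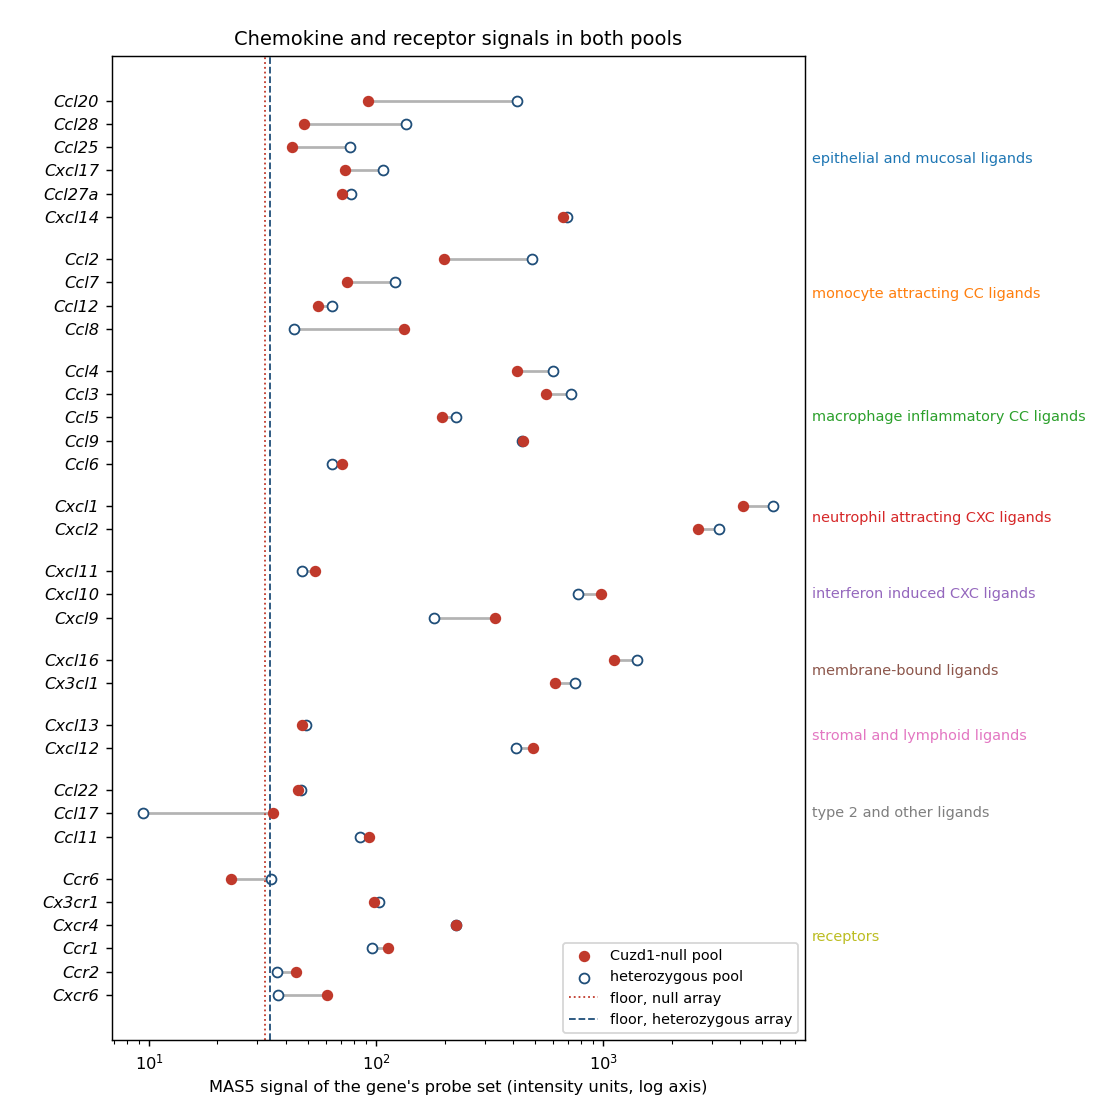
MAS5 signal (x axis, intensity units, log scale) of the 33 measured chemokine and receptor genes (y axis) in the null pool (filled) and the heterozygous pool (open), with 1 array per pool and the floors as vertical lines. Ccl20, Ccl28 and Ccl2 are far to the left in null cells, Ccl8 far to the right, and most other pairs lie close together. Signals of different genes are not comparable in level.

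The promoters of the ligands at least 2-fold apart that the sequence table held, and of 3 NF-kappaB or interferon responsive CXC ligands, are shown here so that genes with and without the searched motifs can be read beside their ratios. Each is the 250 bases before the transcription start, 5′ to 3′ on the gene's strand, from RefSeq with build GRCm38.p6. Capitals mark matches on either strand to GGGNNNTTCC (NF-kappaB type), TTTCNNTTTC (interferon-stimulated response element type) or TGANTCA (AP-1 type). In Cxcl1 and in Cxcl2, matches of the first motif on opposite strands overlap and are printed as 1 run of capitals.
Ccl20 promoter, chr1:83116516-83116765, plus strand: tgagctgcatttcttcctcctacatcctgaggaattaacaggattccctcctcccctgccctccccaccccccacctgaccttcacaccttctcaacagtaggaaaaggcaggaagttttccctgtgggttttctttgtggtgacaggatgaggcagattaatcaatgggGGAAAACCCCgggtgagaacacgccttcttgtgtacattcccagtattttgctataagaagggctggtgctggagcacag
Ccl28 promoter, chr13:119623569-119623818, plus strand: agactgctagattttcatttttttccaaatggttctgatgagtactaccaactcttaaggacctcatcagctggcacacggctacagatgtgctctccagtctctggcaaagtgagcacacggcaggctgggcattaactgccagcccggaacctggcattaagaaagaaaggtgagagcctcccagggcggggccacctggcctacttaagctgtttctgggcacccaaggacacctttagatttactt
Ccl8 promoter, chr11:82114935-82115184, plus strand: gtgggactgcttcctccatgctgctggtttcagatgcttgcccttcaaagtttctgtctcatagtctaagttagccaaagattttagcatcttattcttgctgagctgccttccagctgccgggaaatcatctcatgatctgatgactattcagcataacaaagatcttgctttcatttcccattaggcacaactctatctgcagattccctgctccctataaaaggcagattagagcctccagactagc
Cxcl1 promoter, chr5:90890995-90891244, plus strand: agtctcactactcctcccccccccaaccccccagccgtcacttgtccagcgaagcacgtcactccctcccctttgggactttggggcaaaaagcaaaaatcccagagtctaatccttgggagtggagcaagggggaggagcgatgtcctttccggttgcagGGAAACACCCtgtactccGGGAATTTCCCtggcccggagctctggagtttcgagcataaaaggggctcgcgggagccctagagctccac
Cxcl2 promoter, chr5:90903649-90903898, plus strand: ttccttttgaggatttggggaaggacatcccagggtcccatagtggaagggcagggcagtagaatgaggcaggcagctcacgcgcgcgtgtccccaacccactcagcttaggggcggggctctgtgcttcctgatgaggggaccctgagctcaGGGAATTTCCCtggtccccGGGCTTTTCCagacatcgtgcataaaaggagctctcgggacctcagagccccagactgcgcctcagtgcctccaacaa
Cxcl10 promoter, chr5:92348890-92349139, minus strand: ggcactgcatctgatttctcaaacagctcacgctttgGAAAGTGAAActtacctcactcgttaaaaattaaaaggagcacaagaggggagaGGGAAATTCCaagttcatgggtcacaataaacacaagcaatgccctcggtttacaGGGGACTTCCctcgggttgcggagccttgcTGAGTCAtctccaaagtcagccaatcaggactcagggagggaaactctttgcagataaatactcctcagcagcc

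The table held promoters of 35 of the 48 member genes, in 39 windows, and Ccl2 was not among them. GGGNNNTTCC was found in 9 of these 39 windows (23.1%) and in 4.65% of all 32851 windows. Its match in Ccl20 ended 71 bases before the start, in the ligand with the lowest ratio of the members (-2.18). Cxcl1 and Cxcl2, neighbours on chromosome 5, shared the run GGGAATTTCCC and had ratios of -0.44 and -0.31. Cxcl10, with 2 such matches and both other motifs, had a ratio of 0.32. Ccl9 and Ccr6 also held this motif and had ratios of 0.01 and -0.09. The 6 measured members with this motif therefore lay on both sides of 0, but only Cxcl10 was above it by more than its robust SD. Ccl28 and Ccl8, with ratios of opposite sign, held none of the 3 motifs in this window. The interferon type was found in 2 member windows (5.13%) and 2.98% of all, and the AP-1 type in 5 (12.8%) and 6.75% of all. A match is a run of letters and not evidence of binding.

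At their representing probe sets, ligands made mainly by epithelia had the lowest median of the 8 ligand groups. All 6 were measured, 2 were at least 2-fold lower in null cells and 0 higher. Among all 11893 measured genes, 1.03% were at least 2-fold lower, 1.12% at least 2-fold higher and 5466 below 0. All 6 ratios were below 0, with a median of -0.71, next to -0.45 for the ligands that attract monocytes. The middle values of the 6 were those of Ccl25 and Cxcl17. Ccl25 shrank to -0.30 when its probe sets were averaged, so this ranking depends on the probe sets used. On the hybridization-control scale Ccl27a and Cxcl14 moved above 0 and the other 4 did not. Ccl20, the ligand of Ccr6 that draws dendritic cells and lymphocytes to epithelia, read 91.8 units in null cells and 416 units in heterozygous cells. It was 4.53-fold lower in null cells, a log2 ratio of -2.18 against a robust SD of 0.25 at that signal. Under a 75th percentile floor, above its signal in null cells, the ratio is -1.48 or lower. Among the 10610 genes above both floors, only 3 had a lower ratio. It has 1 probe set, so no second reading exists.

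Ccl28, which in mice draws IgA-secreting cells into the lactating gland through Ccr10, read 48.2 units in null cells and 135 units in heterozygous cells. The difference was 2.81-fold, lower in null cells (log2 ratio -1.49, robust SD 0.39). At its second probe set the signals were 25.4 units in null cells, below the floor, and 48.97 units in heterozygous cells, at least 1.51-fold lower. The third was below the floor in both pools, at 7.76 and 22.8 units in null and heterozygous cells. Ccl28 therefore read lower in null cells at both of its measured probe sets, and the third gives no direction. Its receptor Ccr10 was below the floor in both pools, at 31.4 units in null cells and 26.1 units in heterozygous cells. Markers of B and plasma cells were higher in null cells for all 7 measured of 9 listed genes. With Cd79b, which was below the floor in both pools, they summed to 3014 units in null cells and 443 units in heterozygous cells. Ighm, the heavy chain of IgM, gave 2252 units of the sum in null cells and 172 units in heterozygous cells, and the part of these cells in the Ccl28 result was not tested.

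Ccl25, the ligand of Ccr9 best known from thymus and gut, read 42.5 units in null cells and 76.5 units in heterozygous cells, a ratio of -0.85. Its second probe set went the other way, at 40.5 units in null cells and 28.8 units in heterozygous cells, with 0.24, so no direction is given. Cxcl17, a mucosal ligand, read 72.6 units in null cells and 107 units in heterozygous cells, a ratio of -0.57. Ccl27a, a skin ligand of Ccr10, read 70.4 units in null cells and 77.6 units in heterozygous cells (-0.14). Cxcl14, expressed by many epithelia, read 664 units in null cells and 694 units in heterozygous cells (-0.06), with -0.39 at its other probe set. Myoepithelial markers, which mark the basal layer, were above 0 for 3 of 8 and below 0 for 5, with a median of -0.11. Of these, 1 was at least 2-fold lower: Krt17, a basal keratin, at 126 units in null cells and 368 units in heterozygous cells (2.93-fold). The share of all measured genes at least 2-fold lower was 1.03%. The other basal keratins were less than 2-fold apart, with ratios of -0.69 (Krt14) and -0.47 (Krt5), and Trp63, the basal transcription factor p63, had a ratio of 0.53. The remaining markers lay nearer 0: Acta2 (-0.11), Cnn1 (-0.11), Myh11 (0.01) and Oxtr (0.13). The part of basal cells in these ligands was not tested.

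Of the 4 ligands grouped as attracting monocytes, the 3 ligands of Ccr2 were below 0 and Ccl8 was above it. Ccl2, the main ligand of Ccr2, read 198 units in null cells and 483 units in heterozygous cells. This was 2.44-fold lower in null cells (log2 ratio -1.29, robust SD 0.21). Ccl7, which shares Ccr2, read 74.3 units in null cells and 121 units in heterozygous cells, a ratio of -0.70 with a robust SD of 0.39. Ccl12, a further mouse ligand of Ccr2, read 55.5 units in null cells and 63.9 units in heterozygous cells. Its ratio of -0.20 was inside the robust SD of 0.52 and turned positive on the hybridization-control scale.

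Ccl8, which in mice signals through Ccr8, went the opposite way from Ccl2. It read 133 units in null cells and 43.5 units in heterozygous cells, 3.05-fold higher in null cells. The log2 ratio was 1.61 with a robust SD of 0.42, and 7 of the 10610 genes above both floors had a higher one. Ccl8 has 1 probe set, whose signal in heterozygous cells was near the floor of 34.2 units. Under a 75th percentile floor Ccl8 was not measured. Its receptor Ccr8 was below the floor in both pools, at 3.55 units in null cells and 5.77 units in heterozygous cells. In the RefSeq gene table of GRCm38.p6, Ccl2, Ccl7, Ccl11, Ccl12, Ccl8 and Ccl1 follow each other on chromosome 11. The 5 measured genes of this row spanned ratios of -1.29 for Ccl2 to 1.61 for Ccl8, the lowest and highest of any row of neighbouring members. Ccl11, the eosinophil attractant eotaxin, lies between Ccl7 and Ccl12 and read 93.1 units in null cells and 84.8 units in heterozygous cells (0.13).

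The macrophage inflammatory ligands Ccl3, Ccl4, Ccl5, Ccl6 and Ccl9, which lie in a second row on chromosome 11, were all measured. None of the 5 was 2-fold apart, and the ratios ran from -0.53 to 0.14 with a median of -0.20. Ccl4, a ligand of monocytes and T cells, read 416 units in null cells and 599.7 units in heterozygous cells (-0.53, robust SD 0.25). Its neighbour Ccl3 read 559 units in null cells and 723 units in heterozygous cells (-0.37, robust SD 0.25). On the hybridization-control scale the ratios were -0.31 for Ccl4 and -0.15 for Ccl3, where the median of all measured genes was 0.25. Ccl5, a product of T and NK cells among others, read 195 units in null cells and 224 units in heterozygous cells (-0.20, robust SD 0.30). Ccl6 read 70.6 units in null cells and 64.0 units in heterozygous cells (0.14), with -0.04 at a second probe set. Ccl9 read 443 units in null cells and 439.9 units in heterozygous cells (0.01), with 0.02 at its second probe set. Macrophage markers were above 0 for 7 of 9 measured of 10 listed genes, with a median of 0.29 and Cd163 below the floor in both pools. Ccl2, Ccl3, Ccl4 and Ccl7 read lower in the pool whose summed macrophage marker signal was higher, as did Ccl5 and Ccl12 inside their robust SD. Ccl8 (1.61) read higher in that pool, and Ccl6 (0.14) and Ccl9 (0.01) lay near 0. The part of macrophage number was not tested.

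**Figure D2:**
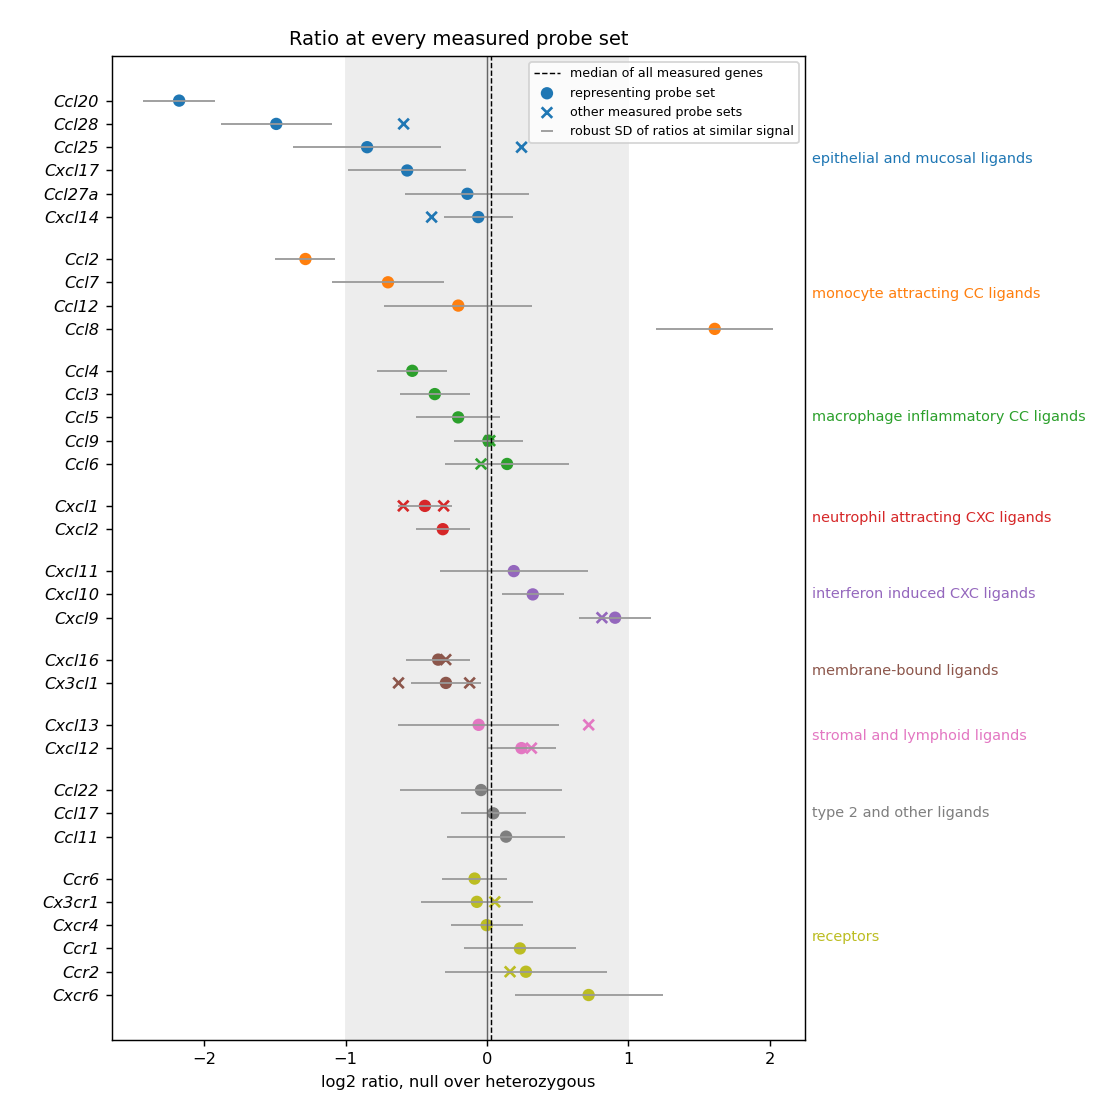
Log2 ratio of null over heterozygous (x axis) at every measured probe set of the members (y axis), coloured by group. Circles are the representing probe sets, crosses the other probe sets, bars the robust SD of ratios at similar signal, and the grey band marks ratios under 2-fold. The 6 epithelial ligands lie left of 0 at their representing probe sets and the 3 interferon-induced ligands right of it. Cxcl13, Ccl25, Ccl6 and Cx3cr1 have probe sets on both sides of 0.

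Neutrophil-attracting ligands of Cxcr2 were measured for Cxcl1 and Cxcl2 only. Cxcl1 read 4136 units in null cells and 5611 units in heterozygous cells at its brightest probe set (-0.44, robust SD 0.19). A second probe set read 2566 units in null cells and 3176 units in heterozygous cells (-0.31), and the third read 632 units in null cells and 953 units in heterozygous cells (-0.59). The 3 readings of Cxcl1 were all lower in null cells. Cxcl2 read 2611 units in null cells and 3244 units in heterozygous cells (-0.31, robust SD 0.19). On the hybridization-control scale the ratios shrank to -0.22 for Cxcl1 and -0.09 for Cxcl2, where the median of all measured genes was 0.25. Cxcl3, Cxcl5 and Cxcl15, as well as the receptor Cxcr2, were below the floor in both pools. Of 7 neutrophil markers on the array 4 were measured, 2 above and 2 below 0, with Mpo, Elane and Mmp8 below the floor in both pools.

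The interferon-induced ligands of Cxcr3 were the 1 group with every measured member above 0 at its representing probe set. None of the 3 was 2-fold apart. Cxcl9, induced mainly by interferon gamma, read 335 units in null cells and 179 units in heterozygous cells. This was 1.87-fold higher in null cells (log2 ratio 0.91, robust SD 0.25). At its second probe set the ratio was 0.81 (63.0 units in null cells and 35.9 units in heterozygous cells). Both probe sets of Cxcl9 were above the floor in each pool. Cxcl10 read 972 units in null cells and 777 units in heterozygous cells (0.32, robust SD 0.22). Cxcl11 read 53.7 units in null cells and 47.1 units in heterozygous cells (0.19, robust SD 0.52). Cxcl9 and Cxcl10 are near neighbours on chromosome 5, in a row apart from that of Cxcl1 and Cxcl2. Their receptor Cxcr3 was below the floor in both pools, at 21.8 units in null cells and 14.4 units in heterozygous cells. Of 9 T and NK cell markers on the array, 5 were measured, 3 above and 2 below 0. All 9, those below the floor included, summed to 433 units in null cells and 320.2 units in heterozygous cells. Gzma, a granzyme, was the brightest at 144 units in null cells and 126 units in heterozygous cells. Cd3g, a chain of the T cell receptor complex, read 62.2 units in null cells and 10.7 units in heterozygous cells, below the floor, so it was at least 1.82-fold higher in null cells. Cd3d, Cd3e, Cd4 and Ncr1 were below the floor in both pools, and the part of T cells in the Cxcl9 result was not tested.

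The membrane-bound ligands Cxcl16 and Cx3cl1, which also hold cells that carry Cxcr6 and Cx3cr1, were both lower in null cells by less than 2-fold. Cxcl16 read 1111 units in null cells and 1413 units in heterozygous cells (-0.35), with -0.29 at its other probe set. Cx3cl1 read 615 units in null cells and 753 units in heterozygous cells (-0.29), with -0.12 and -0.63 at 2 others. All 5 measured probe sets of this pair were below 0. The robust SD at their signal was 0.23 for Cxcl16 and 0.25 for Cx3cl1, so both ratios lay outside it. On the hybridization-control scale the ratios were -0.13 for Cxcl16 and -0.07 for Cx3cl1, where the median of all measured genes was 0.25.

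Among stromal and lymphoid ligands, Cxcl12, which holds progenitor and plasma cells through Cxcr4, read 489 units in null cells and 413 units in heterozygous cells. Its ratio was 0.24 with a robust SD of 0.24, and 0.31 at a second probe set (191 units in null cells and 154 units in heterozygous cells). Cxcl12 is a product of fibroblasts, whose 8 markers were all above 0 with a median of 0.59, and the part of these cells was not tested. Cxcl13, the B cell attractant and ligand of Cxcr5, gave no clear direction. It read 47.3 units in null cells and 49.3 units in heterozygous cells, but 56.3 units in null cells and 18.7 units in heterozygous cells at another probe set, at least 1.65-fold higher in null cells. Ccl22 and Ccl17 bind Ccr4 on T cells. Ccl22 read 45.2 units in null cells and 46.6 units in heterozygous cells. Ccl17 read 35.3 units in null cells, just above the floor, and 9.43 units in heterozygous cells, below it. It was thus at least 1.03-fold higher in null cells. Ccl1, Ccl24 and Xcl1 were below the floor in both pools.

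Of the 15 receptor genes, 9 were below the floor in both pools, as were 6300 of all 18193 named genes. These 9 were Ccr3, Ccr4, Ccr7, Ccr8, Ccr9, Ccr10, Cxcr2, Cxcr3 and Cxcr5. Cxcr4, the receptor of Cxcl12, read 225 units in each pool, with a ratio of -0.00. Ccr1, a receptor of Ccl3, Ccl5, Ccl6 and Ccl9, read 112 units in null cells and 95.6 units in heterozygous cells (0.23). Cx3cr1, carried by macrophages and monocytes, read 97.6 units in null cells and 103 units in heterozygous cells (-0.07). These 3 receptors differed by less than the robust SD at their signal, which was 0.25 for Cxcr4 and 0.39 for the other two.

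Cxcr6, found on NK, T and plasma cells, had the highest ratio of the receptors. It read 60.9 units in null cells and 36.996 units in heterozygous cells, a ratio of 0.72 with a robust SD of 0.52. Its second probe set was below the floor in both pools. Ccr2 read 44.3 units in null cells and 36.6 units in heterozygous cells (0.27, robust SD 0.57), with 0.16 at its second probe set. Ccr6 read 22.9 units in null cells, below the floor, and 34.6 units in heterozygous cells, just above it. Ccr6, Ccr10 and Ccr8, the receptors of Ccl20, Ccl28 and Ccl8, were thus at or below the floor, and whether they moved with their ligands cannot be read here.

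**Figure D3:**
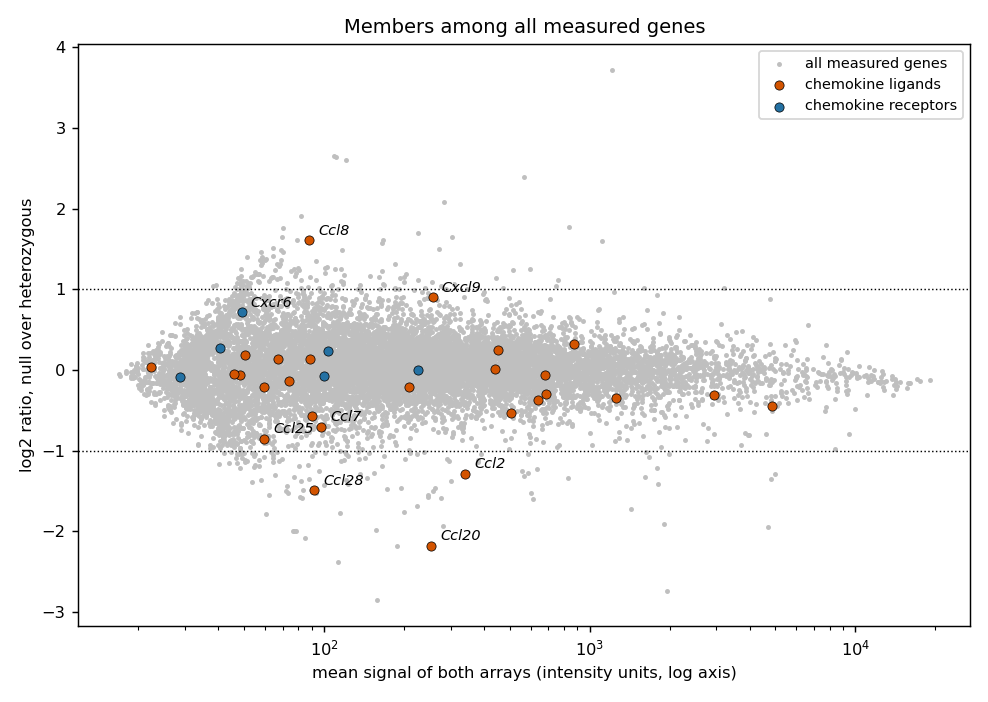
Log2 ratio of null over heterozygous (y axis) against mean signal of both arrays (x axis, intensity units, log scale) for 11893 measured genes (grey), with ligands in orange and receptors in blue. Dotted lines mark 2-fold. Ccl20, Ccl28, Ccl2 and Ccl8 lie outside the lines, and the receptors lie inside them at low to middle signal.

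Where a member had several measured probe sets, they mostly agreed in side. Of 13 such genes, 9 had all their measured probe sets on the same side of 0. In 7 genes every measured probe set was above both floors, and in all 7 of these the side was the same: Ccl9, Cx3cl1, Cxcl1, Cxcl12, Cxcl14, Cxcl16 and Cxcl9. Probe sets read the same 2 pools and are no replicates. Ccl20, Ccl2, Ccl7 and Ccl8 each rest on a single probe set.

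Relatives of the members that the naming rule leaves out were higher in null cells for 7 of 10 measured of 14 listed genes, with a median of 0.31, and none was 2-fold apart. They include decoy receptors that bind chemokines without classical signalling. The 2 brightest were Mif, a cytokine that can bind Cxcr4 (3128 units in null cells and 2659 units in heterozygous cells), and Cd74, its receptor (2751 units in null cells and 2572 units in heterozygous cells). Ackr1, the Duffy receptor of venular endothelium, read 642 units in null cells and 368 units in heterozygous cells (0.80). Ackr4, a scavenger of Ccl25 among others, read 148 units in null cells and 91.5 units in heterozygous cells (0.69). Ackr3, the atypical receptor of Cxcl12, read 260 units in null cells and 293 units in heterozygous cells (-0.17). Ackr1, Ackr3 and Ackr4 were picked for naming after their values were seen. Endothelial markers, Ackr1 among them, were above 0 for all 9, summing to 3418 units in null cells and 2206 units in heterozygous cells.

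Genes that carry the receptor signal had a median of 0.00 over 24 measured of 26 listed, with 1 at least 2-fold higher and 0 lower. The exception was Elmo1, a partner of Dock2 in Rac activation, at 143 units in null cells and 69.1 units in heterozygous cells (2.06-fold). For comparison, 1.12% of all 11893 measured genes were at least 2-fold higher, 1.03% at least 2-fold lower and 6427 were above 0. Leukocyte adhesion genes had a median of 0.37 over 17 of 18 listed, 14 of them above 0. Of these, 1 was at least 2-fold higher and 0 lower: Itgb2, the beta chain of leukocyte integrins, at 161 units in null cells and 75.6 units in heterozygous cells (2.13-fold). Madcam1, the mucosal addressin, had the lowest ratio of that list, -0.91, at 77.7 units in null cells and 146 units in heterozygous cells, and was named after its values were seen.

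Genes of 2 pathways that induce chemokines were listed, and the difference between the lists was not tested. Among all 11893 measured genes, 1.12% were at least 2-fold higher, 1.03% at least 2-fold lower and 6427 above 0. The NF-kappaB and IL-17 list had a median of -0.08 over 22 measured of 24 listed, with 1 gene at least 2-fold lower and 0 higher. That gene was Ptx3, a soluble pattern recognition protein, at 68.1 units in null cells and 308 units in heterozygous cells (4.52-fold lower), close to the ratio of Ccl20. Nfkbia, the inhibitor that NF-kappaB induces, had a ratio of -0.06, while Tnf (0.90) and Il6 (0.59) were above 0, and these 3 were named after their values were seen. The interferon gamma list had a median of 0.41 over 12 measured of 16 listed, 10 of them above 0 and none 2-fold apart. Its 2 brightest genes were Iigp1, an interferon-induced GTPase (1731 units in null cells and 1204 units in heterozygous cells), and Irf1, a transcription factor (1807 units in null cells and 2014 units in heterozygous cells). Whether either pathway acted on the ligands was not tested.

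Proteases that trim chemokines had a median of 0.21 over 7 measured of 12 listed, with 2 at least 2-fold lower and 0 higher. The shares over all measured genes were 1.03% lower and 1.12% higher. Mmp12, the macrophage elastase, read 52.1 units in null cells and 178 units in heterozygous cells (3.42-fold lower). Mmp13, a collagenase, read 72.5 units in null cells and 159 units in heterozygous cells (2.19-fold lower). Adam10 and Adam17, which shed Cxcl16 and Cx3cl1 from the cell surface, had ratios of 0.26 and 0.21. The other measured genes of this list were Mmp3 (0.87), Mmp2 (0.69) and Dpp4 (-0.22), and all but Mmp12 and Mmp13 were named after their values were seen.

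**Figure D4:**
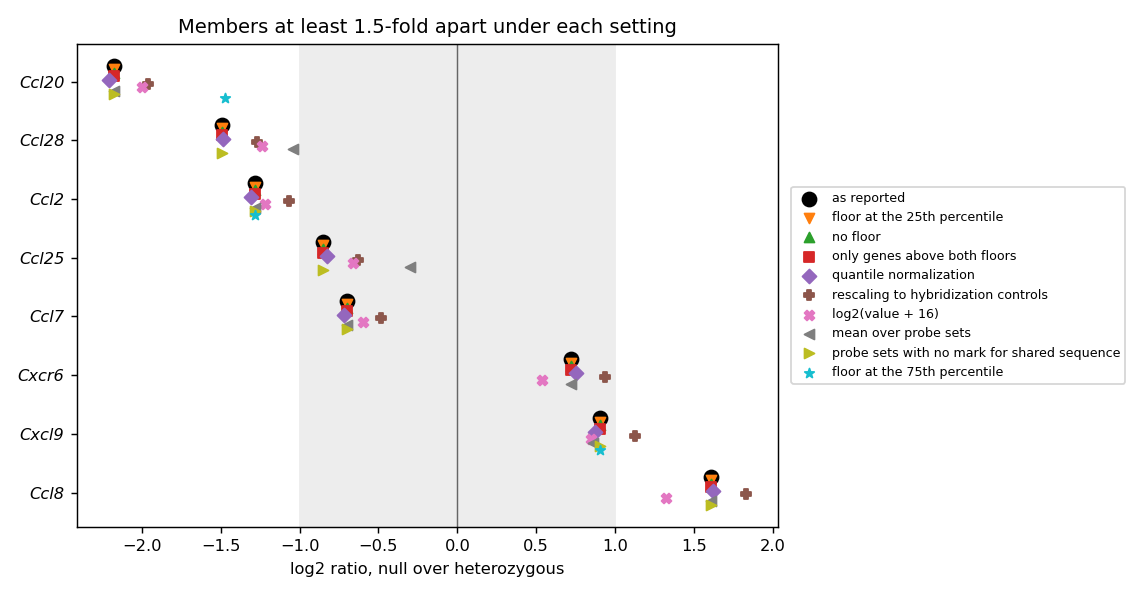
Log2 ratio of null over heterozygous (x axis) of the 8 members at least 1.5-fold apart (y axis) under each processing setting, with the reported value as a large black circle. Ccl20, Ccl28 and Ccl2 stay below a log2 ratio of -1 and Ccl8 above 1 wherever they were measured. Cxcl9 passes 1 on the hybridization-control scale, at 1.12, and Ccl25 shrinks to -0.30 when its probe sets are averaged.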

How the data were processed

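Per the submitters' processing notes, the authors ran MAS5 in Affymetrix Expression Console (version 1), and the deposited table gives each array's linear intensity for every probe set. Without 2% of values at each end, both arrays had a mean of 150.001 units, which shows a global scaling that assumes equal total signal. Detection calls were not used here, and no genome build is named in the sources. Having 1 array per genotype limits the precision.

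Of the probe sets, 64 were controls, 34945 others had 1 symbol, 932 had several and 9160 had none in the platform's annotation. Symbols were updated through the RefSeq table (34754 matched, with all 76 members). Probe sets with several symbols named no gene. Signals were floored at each array's median over 45037 non-control probe sets. Genes were represented by the probe set with the highest mean signal, and robust SDs come from the median absolute deviation in 20 signal bins. With 1 pool per genotype no test was run, and a 2-fold rule of size was used with its share over all genes.

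Members, role groups, lists and rules were chosen with earlier results of these data known. Every measured member is given. A fuller account went to members at least 1.5-fold apart and to the brightest, and pathway lists name their members at least 2-fold apart or else the 2 brightest, except where the text says a gene was named after its values were seen. Marker genes are named beside a result they touch. Protein sequences were planned and were not used here, so promoters are shown. The procedure, in Python 3.11.15 with pandas 2.3.3, was tested on simulated data. Changes were planted only in genes well above both floors, with less scatter than these arrays show. That test therefore does not bear on members of low signal. Alternatives covered the floor, filter, pseudocount, scaling, probe set choice and fold.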

Additional observations from a re-analysis of the deposited data

How the results depend on the processing

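No paired analysis was possible because each genotype has 1 array. Under 9 alternatives the 33 measured members gave 274 values, of which 262 moved by less than the robust SD at their signal. None that was 2-fold apart changed side of 0. Many of these values could not differ from the reported one. A gene above both floors keeps its ratio with a lower floor or none, and a gene with 1 probe set keeps it under averaging. The count of 262 is therefore no measure of certainty. Ligands at least 2-fold lower numbered 2 to 3 except at 1.5-fold, where there were 5. Ligands at least 2-fold higher, 1 as reported, were 3 under a 25th percentile floor (Ccl8, Ccl17 and Cxcl15), 0 under a 75th percentile floor, where Ccl8 is below the floor, and 2 with no floor, with log2(value + 16), on the hybridization-control scale or at 1.5-fold. Receptors at least 2-fold higher were 0, and 1 at 1.5-fold. Over all genes, 133 higher and 123 lower became, with a 25th percentile floor, 666 and 817, with a 75th percentile floor 24 and 39, 370 and 368 with no floor, 339 and 59 on the hybridization-control scale and 693 and 586 at 1.5-fold. The protease list, with 11 genes in place of 7, had a median of -0.14 under a 25th percentile floor. The 18 hybridization control probe sets had a median log2 ratio of -0.22. Rescaling to them changed the side of 0 for 9 members, all within 0.205 of it as reported: Ccl5, Ccl12, Ccl22, Ccl27a, Cxcl13, Cxcl14, Ccr6, Cx3cr1 and Cxcr4. Averaging probe sets brought Ccl28 to -1.04, a 75th percentile floor brought Ccl20 to -1.48 and the hybridization-control scale brought Ccl2 to -1.07. Leaving out probe sets marked for shared sequence was chosen after the data were seen. It moved none of the 30 members it kept by more than their robust SD. Ccl27a, Ccr6 and Cxcr6 had no measured probe set left and could not be checked this way.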
